A study of Mus musculus with 12 samples.

Results

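The 41 genes described here carry out or control glycolysis, lactate handling, the pentose phosphate pathway and glycogen metabolism. They were chosen by symbol, with no measured value in the rule, out of 25239 genes in the deposited count table. Earlier results of these data were known when they were chosen. All 41 had enough counts to be among the 14901 genes tested. Glycolysis splits glucose into pyruvate and yields ATP without oxygen. Pyruvate is reduced to lactate, which leaves the cell through monocarboxylate transporters, or it enters mitochondria through pyruvate dehydrogenase. The pentose phosphate pathway draws on glucose 6-phosphate to make NADPH and ribose, and glycogen stores glucose that was activated as UDP-glucose. In skin repair, early wounds are known to be poor in oxygen and rich in lactate, and fibroblasts also spend UDP-sugars on matrix glycosaminoglycans.

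RNA came from back skin of wild-type male C57BL/6 mice aged 8 weeks. One group of mice was left unwounded (NW), and the others were sampled 16 h, 1.5 d or 3 d after a full-thickness excision made with a biopsy punch. Each of the 4 groups had 3 mice and 3 libraries. Live cells with SCA1 on their surface and without CD45 (leukocytes) or CD31 (endothelium) were sorted, so fibroblasts that lack SCA1 are not represented. The 12 libraries held 26389453 to 43493475 counted fragments, at which 3 counts correspond to 0.069 to 0.114 CPM (counts scaled to a common library total). All 8 fibroblast markers were present in every library. They took 6.65 to 12.9% of counts in NW, 2.79 to 6.23% at 16 h, 3.41 to 5.44% at 1.5 d and 6.29 to 10.3% at 3 d. This sum lay below NW at both earlier wound times, and it is weighted to Col1a1 and Col1a2. Their means were 42155 and 49031 CPM in NW and 15377 and 14162 CPM at 16 h. By gene, 1 fibroblast marker rose and 2 fell at 16 h, 3 rose and 1 fell at 1.5 d, and 2 rose and 0 fell at 3 d. Pdgfra rose at each time. The 18 keratinocyte markers took 1.95 to 4.04% of counts in NW and 0.0862 to 1.46% in the wounds, without overlap. Adipocyte markers took 0.00515 to 0.00942% in NW and at most 0.000631% in the wounds. In NW that sum was weighted to Car3 (mean 46.3 CPM), and of 8 tested 5, 4 and 3 fell at the 3 times. Endothelial markers took 0.0071 to 0.0113% in NW and at most 0.0048% in the wounds. In NW the endothelial sum was weighted to Tek (mean 79.3 CPM). Of 7 tested, 3 fell at 16 h and 1 at each later time, and Pecam1, Cdh5 and Kdr were not called. Neutrophil markers took at most 5.47e-05% in NW and 0.00089 to 0.00248% at 16 h. Macrophage markers took 0.00537 to 0.0120% over the 12 libraries, and 5 of 11 rose at each wound time. Their sum was weighted in NW to Csf1r (mean 60.1 CPM), which fell at 16 h. Pericyte markers were at or below 0.0105% and skeletal muscle markers at or below 0.0032%. The haemoglobin genes Hba-a1, Hba-a2, Hbb-bs and Hbb-bt, which mark red blood cells, were at 0 in every library. They are overlapping or near-identical copies, whose shared reads a count per gene can leave out, so their 0 does not measure red blood cells. In bulk samples, fewer cells of a type and less RNA per cell cannot be told apart.

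Levels below are CPM after trimmed-mean (TMM) scaling, in the order of replicates 1, 2 and 3. Changes are log2 differences with an approximate standard error (SE). Adjusted p values are from edgeR's quasi-likelihood test over all 14901 genes, and "rose" and "fell" are used for adjusted p under 0.05. Levels per exon length (RPKM) are used where genes are set side by side. Both words, and "not called", refer to that test. For the members, the genes introduced at the start, alternatives that end or add a call are named beside it. The replicate block is left out there, because replicate numbers do not pair the mice. For single genes outside the members, markers included, whether a call holds under the alternatives was not tested. One of the alternatives, the keratinocyte covariate, adds to the fit the log2 of the summed TMM-scaled CPM of the keratinocyte markers in each library, centred on its mean.

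The promoters of the members with the largest calls at 16 h are shown because those genes mark the extremes of the response: Gys1, Hk2 and Slc16a3 rose most, and Ldhb and Pygl fell most. Each window runs from 250 bases before to 50 bases after a start of the gene, 5′ to 3′ on the gene's strand, from RefSeq on GRCm38.p6 (mm10). Capitals mark ACGTG on either strand, which is a form of the core of the element bound by hypoxia-inducible factors. Other forms of that core were not marked or counted. The windows lie at chr7:45434589-45434888, strand + (Gys1), chr6:82774405-82774704, strand - (Hk2), chr11:120948817-120949116, strand + (Slc16a3), chr6:142507908-142508207, strand - (Ldhb) and chr12:70227634-70227933, strand - (Pygl). The counted exons of Slc16a3 begin at 120948484, ahead of its window, so that window and its matches belong to a start further downstream.
Gys1: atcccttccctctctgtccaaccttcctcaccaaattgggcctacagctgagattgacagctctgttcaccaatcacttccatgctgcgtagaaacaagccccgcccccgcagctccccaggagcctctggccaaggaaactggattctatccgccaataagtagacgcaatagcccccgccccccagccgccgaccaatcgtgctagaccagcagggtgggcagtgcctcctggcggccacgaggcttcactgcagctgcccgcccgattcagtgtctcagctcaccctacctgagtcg
Hk2: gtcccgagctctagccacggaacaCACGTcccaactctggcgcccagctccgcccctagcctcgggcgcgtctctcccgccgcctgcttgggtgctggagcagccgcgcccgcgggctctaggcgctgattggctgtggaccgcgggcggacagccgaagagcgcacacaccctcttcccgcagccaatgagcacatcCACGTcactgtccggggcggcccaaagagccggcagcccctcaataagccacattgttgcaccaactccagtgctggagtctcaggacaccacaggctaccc
Slc16a3: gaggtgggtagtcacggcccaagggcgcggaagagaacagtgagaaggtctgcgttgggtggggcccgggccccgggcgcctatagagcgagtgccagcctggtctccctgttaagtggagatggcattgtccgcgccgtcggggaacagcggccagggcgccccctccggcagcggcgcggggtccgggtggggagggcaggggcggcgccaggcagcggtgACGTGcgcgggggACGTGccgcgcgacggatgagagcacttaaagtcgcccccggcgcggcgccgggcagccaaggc
Ldhb: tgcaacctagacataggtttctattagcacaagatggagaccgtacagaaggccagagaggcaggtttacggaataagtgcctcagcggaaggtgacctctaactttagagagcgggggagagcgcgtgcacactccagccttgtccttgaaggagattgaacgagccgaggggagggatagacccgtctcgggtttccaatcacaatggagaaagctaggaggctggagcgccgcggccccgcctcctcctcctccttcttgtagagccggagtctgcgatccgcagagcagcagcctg
Pygl: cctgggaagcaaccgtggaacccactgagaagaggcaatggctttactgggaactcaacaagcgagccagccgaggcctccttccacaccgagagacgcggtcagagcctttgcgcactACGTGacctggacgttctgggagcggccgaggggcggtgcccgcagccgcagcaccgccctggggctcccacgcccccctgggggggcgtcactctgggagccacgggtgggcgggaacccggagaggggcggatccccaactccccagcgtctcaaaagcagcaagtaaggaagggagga
The Hk2 and Slc16a3 windows each held 2 matches, the Pygl window 1, and those of Gys1 and Ldhb none in these letters. All 41 members had at least 1 window in the table. ACGTG stood in 25 of 59 member windows (42.4%) and in 19.6% of all 32851 windows. Counted by gene, it stood in 21 of 41 members, in 9 of the 17 that rose at 16 h and in 4 of the 5 that fell, against 21.8% of all 27025 genes. CACGTG, the E-box palindrome, which contains ACGTG, stood in 6 of 59 member windows (10.2%) and in 7.15% of all windows. The windows and genes set beside the members include genes not tested here, and base composition was not matched. A match describes letters in a window and not a bound site.

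Most steps from glucose entry to lactate export were higher in wound fibroblasts, and lower glycolysis was the most uniform stretch. Against NW, 17 of 41 members (41.5%) rose and 5 (12.2%) fell at 16 h, where 13.5% and 11.2% of all genes tested rose and fell. At 1.5 d, 21 rose and 4 fell, against 13.7% and 10.8% of all genes. At 3 d, 22 rose and 1 fell, against 12% and 9.15%. The median change of the 41 members was 0.58 by 16 h, 0.80 by 1.5 d and 0.94 by 3 d, and that of all genes was -0.04, 0.01 and 0.00. By the F test over the 4 groups, 29 of 41 members differed (70.7%), as did 29.7% of all genes. The 41 members together took 0.547, 0.635 and 0.525% of counts in the NW libraries, 1.21, 1.41 and 1.35% at 16 h, 1.69, 1.19 and 1.61% at 1.5 d and 1.43, 1.21 and 1.59% at 3 d. Every wound library lay above every NW library in this sum.

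Replicates can also be read without a model, as groups whose libraries do not overlap. Against NW, 21 of 41 members lay wholly above and 8 wholly below at 16 h, where 20.4% and 20.9% of all genes did. At 1.5 d 21 lay above and 5 below, against 20.5% and 20.2% of all genes. At 3 d 24 lay above and 5 below, against 20.9% and 19.4%. From 16 h to 1.5 d 9 lay above and none below, where 23.4% of all genes did either (12.4% and 11.1%). From 16 h to 3 d it was 21 above and 5 below, where 32.5% of all genes did either (17% and 15.5%). From 1.5 d to 3 d it was 6 and 3, where 13.6% of all genes did either (6.93% and 6.63%).

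**Figure D1:**
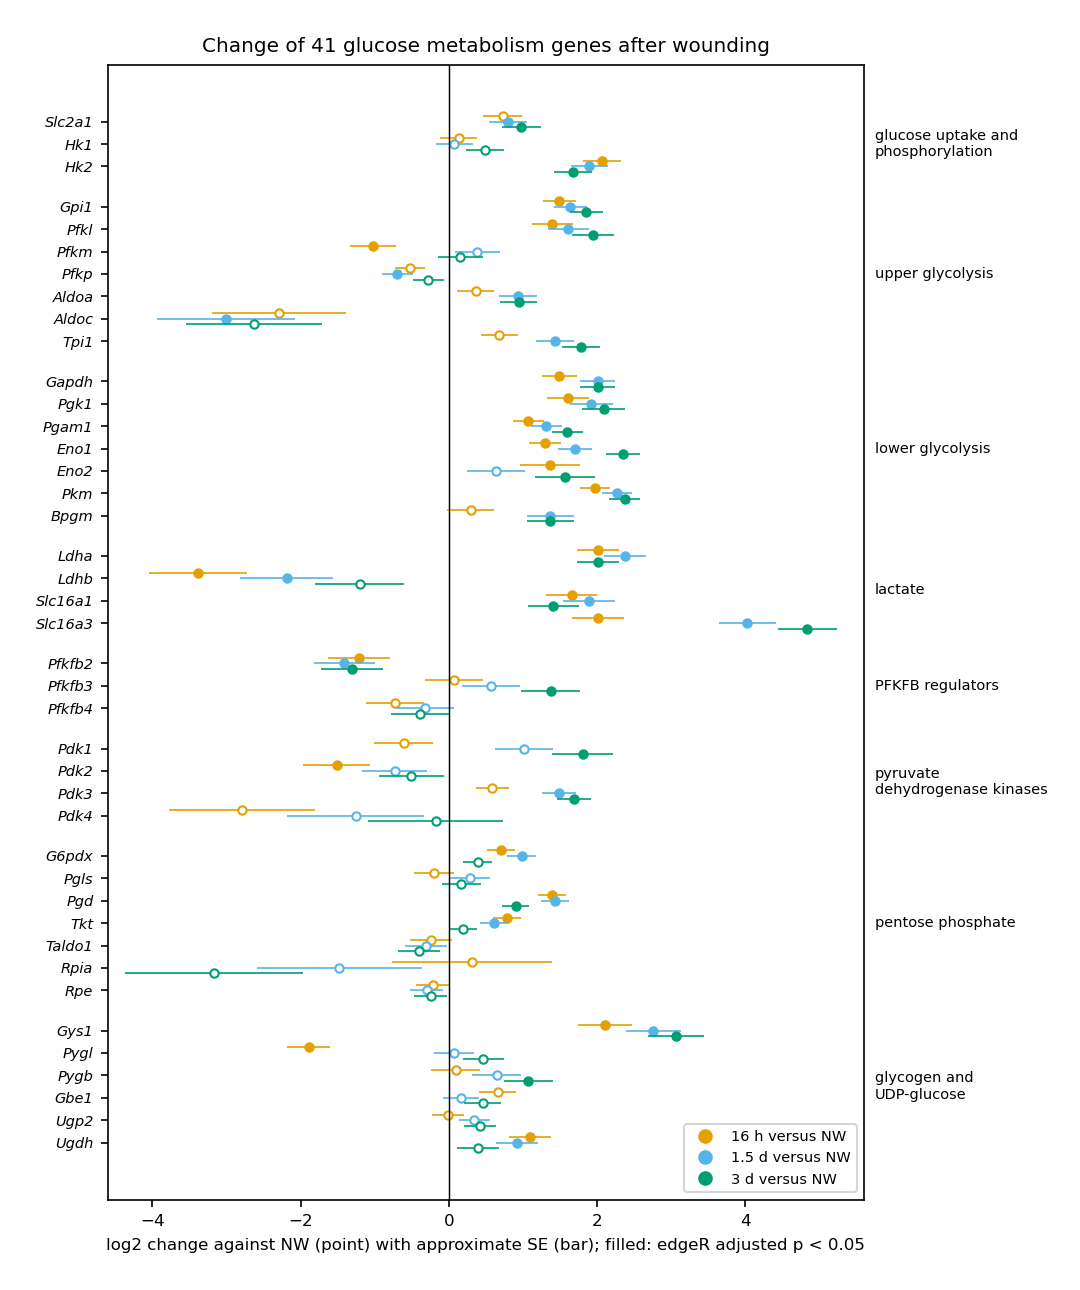
Change of each of the 41 genes (rows, grouped by role) at 16 h, 1.5 d and 3 d against NW, on the log2 scale (x axis), with bars for the approximate SE and filled points for edgeR adjusted p under 0.05. All 7 lower glycolysis genes are filled to the right of 0 at 3 d, Slc16a3 reaches 4.84, and Ldhb, Pygl, Pfkfb2, Pdk2 and Pfkm are filled to the left of 0 at 16 h.

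Fewer members changed between wound times. From 16 h to 1.5 d, 5 rose and none fell, where 2.86% of all genes were called (2.39% up and 0.47% down). From 16 h to 3 d, 9 rose and none fell, where 9.53% of all genes were called (5.86% up and 3.67% down). With total-count scaling the latter split was 6 up and 3 down (Pgd, Tkt and Ugdh), where 703 of all genes rose and 971 fell. That scaling moved the median of all genes from -0.02 to -0.19 in that comparison and from 0.00 to -0.11 for 3 d against NW. None of the 41 differed between 1.5 d and 3 d by edgeR, DESeq2 or limma-voom, while 6 had an unadjusted edgeR p under 0.05, and 0.141% of all genes were called there (0.101% up and 0.0403% down).

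The fall in the summed keratinocyte share ran alongside these changes, and its part in them was not tested beyond the covariate fit. The markers did not all fall: of 18, 6 fell at 16 h, 12 at 1.5 d and 10 at 3 d, and 2 rose each time. Those 2 were Krt6a, from a mean of 20.4 CPM in NW to 368 to 395 CPM in the wound groups, and Krt6b, from 1.17 CPM in NW to between 42.9 and 85.5 CPM. The share separates NW from every wound library, so the covariate and the wounding cannot be told apart in full, and a call lost in that fit does not show that the change came with the keratinocyte RNA. With the keratinocyte covariate, 54 of the 84 called changes over all comparisons kept their call, none of the 84 changed sign, and 5 moved by over 1.5-fold. In that fit 15 members rose and 3 fell at 16 h, where 8.07% and 5.59% of all genes did. At 1.5 d 14 rose and none fell, against 3.52% and 1.52% of all genes, and at 3 d 14 rose and none fell, against 3.23% and 0.872%. Within the 3 d group replicate 1 had the lowest keratinocyte share of the series, 0.0862%, and replicate 3 had 1.46%. Those 2 libraries held 2639 and 2519 CPM of Pkm and 2053 and 2304 CPM of Ldha, against at most 521 and 607 CPM in any NW library. Other members differed more between them, such as Ldhb (2.36 and 8.02 CPM) and Slc16a1 (407 and 184 CPM). These genes are examples, and a link of any member with the keratinocyte share within the 3 d group was not tested.

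Of the genes of glucose uptake and phosphorylation, Hk2 rose at all 3 times and Slc2a1 at 1.5 d and 3 d. Hexokinases trap glucose in the cell as glucose 6-phosphate. Hk2, the inducible isozyme (chromosome 6, 82725027 to 82774454 in mm10), stood at 119, 149 and 120.0 CPM across NW and 532, 669.7 and 425 at 16 h. Hk2 then measured 457, 474 and 511 CPM at 1.5 d and 482, 483 and 273 by 3 d. Every wound library lay above every NW library. The change was 2.07 ± 0.25 (adjusted p = 0.000151) at 16 h, 1.89 ± 0.25 (adjusted p = 0.000288) at 1.5 d and 1.67 ± 0.25 (adjusted p = 0.000673) at 3 d, with no difference called between wound times. Hk1, the constitutive isozyme, stood at 113, 94.7 and 96 CPM across NW and 122, 115 and 96 at 16 h. Hk1 then measured 75.3, 112 and 132 CPM at 1.5 d and 119, 193 and 114 by 3 d. Its groups overlapped at 16 h and 1.5 d. It was not called at any time, with changes of 0.13 ± 0.25, 0.07 ± 0.25 and 0.49 ± 0.25. Per length, Hk2 went from 51.1% ± 4.97 of the Hk1 and Hk2 sum in NW to 79.8% ± 2.56 by 16 h, 78.9% ± 3.82 by 1.5 d and 70.1% ± 5.84 by 3 d (mean ± SD, n = 3). Slc2a1, the GLUT1 glucose transporter, stood at 115, 208 and 146 CPM across NW and 306, 235 and 233 at 16 h. Slc2a1 then measured 345, 214 and 256 CPM at 1.5 d and 259.6, 291 and 371 by 3 d. It rose at 1.5 d by 0.80 ± 0.26 (adjusted p = 0.0386) and at 3 d by 0.98 ± 0.26 (adjusted p = 0.0177). At 16 h it was not called (0.72 ± 0.26, adjusted p = 0.0570), although no wound library was as low as the highest NW library. At 16 h Slc2a1 was called with any one of NW replicate 2, 1.5 d replicate 1 or 3 d replicate 1 left out (adjusted p from 0.0235 to 0.0485), with DESeq2 (0.0331), with limma-voom (0.0393) and with the keratinocyte covariate (0.0405). The 3 d call of Slc2a1 was lost with any one of NW replicates 1 and 3 or 3 d replicate 3 left out (adjusted p from 0.0521 to 0.0595). Its 1.5 d call was lost with any one of NW replicates 1 and 3, 16 h replicate 2 or 1.5 d replicates 1 and 3 left out (adjusted p from 0.0525 to 0.135), with total-count scaling (0.0580), with the keratinocyte covariate (0.0621) and in a fit of the 2 groups alone (0.0740).

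Upper glycolysis turns hexose phosphates into triose phosphates. Of its 7 members, 2 rose and 1 fell at 16 h, 4 rose and 2 fell at 1.5 d, and 4 rose and none fell at 3 d. The shares of all genes were 13.5%, 13.7% and 12% up and 11.2%, 10.8% and 9.15% down. Gpi1, glucose-6-phosphate isomerase, stood at 129, 181 and 121 CPM across NW and 359, 422 and 431 at 16 h. Gpi1 then measured 512, 334 and 495 CPM at 1.5 d and 525, 534 and 497 by 3 d. Its groups were apart at each wound time, with changes of 1.49 ± 0.22 (adjusted p = 0.000514), 1.64 ± 0.22 (adjusted p = 0.000316) and 1.85 ± 0.22 (adjusted p = 0.000151). Tpi1, triosephosphate isomerase, stood at 185, 313 and 251 CPM across NW and 367, 388 and 445 at 16 h. Tpi1 then measured 876, 474 and 666 CPM at 1.5 d and 903, 785 and 898 by 3 d. Tpi1 was not called at 16 h (0.68 ± 0.25), and it rose by 1.43 ± 0.25 (adjusted p = 0.00165) at 1.5 d and 1.79 ± 0.26 (adjusted p = 0.000501) at 3 d. Tpi1 also rose from 16 h to 3 d by 1.11 ± 0.25 (adjusted p = 0.0150), a call that was lost with any one of 16 h replicates 1 and 2 left out (adjusted p from 0.0627 to 0.0650). The 16 h rise of Tpi1 was called with any one of NW replicate 2 or 1.5 d replicates 1 and 2 left out (adjusted p from 0.0403 to 0.0459), with DESeq2 (0.0384) and with limma-voom (0.0429). Its rise from 16 h to 1.5 d was called with DESeq2 (0.0414). Aldoa, the main aldolase here, rose at 1.5 d by 0.94 ± 0.25 (adjusted p = 0.0173) and at 3 d by 0.94 ± 0.25 (adjusted p = 0.0196). The 1.5 d call was lost with any one of NW replicate 3 or 1.5 d replicate 1 left out (adjusted p from 0.0632 to 0.0679), with the keratinocyte covariate (0.158) and in a fit of the 2 groups alone (0.0557). The 3 d call was lost with NW replicate 3 left out (adjusted p = 0.0653) and with the keratinocyte covariate (0.190).

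The phosphofructokinases, the committed step of glycolysis, changed in composition. Pfkl, the liver-type subunit, stood at 45.8, 80.3 and 93.6 CPM across NW and 207, 212 and 158 at 16 h. Pfkl then measured 219.5, 159.7 and 292 CPM at 1.5 d and 274, 292 and 279 by 3 d. It rose in every wound group, by 1.39 ± 0.28 (adjusted p = 0.00327), 1.61 ± 0.28 (adjusted p = 0.00148) and 1.94 ± 0.28 (adjusted p = 0.000552), with no wound library as low as the highest NW library. Pfkp, the platelet-type subunit, stood at 276, 264 and 297 CPM across NW and 237, 190.3 and 153 at 16 h. Pfkp then measured 168, 163 and 186 CPM at 1.5 d and 186, 274 and 231 by 3 d. It was the most abundant of the 3 in NW and fell at 1.5 d (-0.70 ± 0.21, adjusted p = 0.0260). All 16 h libraries also lay below all NW libraries (-0.53 ± 0.21), which was called with the stricter filter (0.0424) and with DESeq2 (0.0224). At 3 d the change was -0.28 ± 0.20. Per length, Pfkl held 13.9, 22 and 23.2% of the family sum in the NW libraries and 56.4, 50.3 and 53.3% at 3 d. Pfkp held 81.2, 70.5 and 71.5% in NW and 37.4, 45.8 and 42.9% at 3 d. The summed family level was 89.9 ± 9.03 RPKM in NW, 96.1 ± 16.5 by 16 h, 103 ± 20 by 1.5 d and 130.1 ± 11.8 by 3 d (mean ± SD, n = 3), so the groups up to 1.5 d lay within each other's spread while the subunit mix had moved. The 1.5 d call of Pfkp was lost with any one of NW replicates 1 and 3 or 1.5 d replicates 1, 2 and 3 left out (adjusted p from 0.0571 to 0.0849) and with the keratinocyte covariate (0.410). Of Pfkp, 6.59% of the exon length overlaps Pitrm1, where unstranded fragments cannot be assigned.

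Pfkm, the muscle-type subunit, and Aldoc, the brain-type aldolase, were scarcer members that fell, Pfkm at 16 h and Aldoc at 1.5 d. Pfkm stood at 12.5, 20.7 and 16.3 CPM across NW and 6.27, 10.8 and 7.18 at 16 h. Pfkm then measured 18.7, 20 and 25.7 CPM at 1.5 d and 23.2, 17 and 14.9 by 3 d. All 3 libraries at 16 h lay below all NW libraries (-1.03 ± 0.31, adjusted p = 0.0265), and by 1.5 d the level was back in the NW range or above it. Pfkm rose from 16 h to 1.5 d by 1.41 ± 0.31 (adjusted p = 0.0284) and to 3 d by 1.18 ± 0.31 (adjusted p = 0.0292). Aldoc stood at 4.65, 4.97 and 6.63 CPM across NW and 1.47, 1.63 and 0.201 at 16 h. Aldoc then measured 0.866, 0.0985 and 1.04 CPM at 1.5 d and 0.488, 0.933 and 1.19 by 3 d. All wound libraries lay below all NW libraries. By edgeR it was called at 1.5 d only (-3.01 ± 0.93, adjusted p = 0.0317), and replicate 2 at 1.5 d was near the level of 3 counts. The 16 h call of Pfkm was lost with any one of NW replicates 2 and 3 or 16 h replicates 1 and 3 left out (adjusted p from 0.0654 to 0.0979) and in a fit of the 2 groups alone (0.0582). Its rise to 1.5 d was lost with any one of 16 h replicates 1 and 3 or 1.5 d replicates 2 and 3 left out (adjusted p from 0.0579 to 0.117) and with the keratinocyte covariate (0.0565). Its rise to 3 d was lost with any one of 16 h replicates 1 and 3 or 3 d replicates 1 and 2 left out (adjusted p from 0.0647 to 0.131), with total-count scaling (0.0670), with the keratinocyte covariate (0.0762) and in a fit of the 2 groups alone (0.0515). The 1.5 d call of Aldoc was lost with any one of NW replicates 1, 2 and 3 or 1.5 d replicates 1, 2 and 3 left out (adjusted p from 0.0509 to 0.0804) and with the keratinocyte covariate (0.312), where the change was -2.43 with the covariate. Its 16 h fall was called with DESeq2 (0.0225) and with limma-voom (0.0207). Its 3 d fall was called with any one of 16 h replicate 3 or 1.5 d replicate 2 left out (adjusted p from 0.0317 to 0.0364), with DESeq2 (0.0109), with limma-voom (0.0297) and in a fit of the 2 groups alone (0.0170).

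Lower glycolysis, from triose phosphate to pyruvate, moved together. Of 7 members, 6 rose and none fell at 16 h and at 1.5 d, and all 7 rose at 3 d, where 13.5%, 13.7% and 12% of all genes rose. Pkm, pyruvate kinase (chromosome 9, 59656368 to 59679375 in mm10), stood at 411, 515 and 521 CPM across NW and 1939, 2061 and 1668 at 16 h. Pkm then measured 2387, 1970.2 and 2622 CPM at 1.5 d and 2639, 2346 and 2519 by 3 d. The lowest wound library held more than 3 times the highest NW library. The changes were 1.97 ± 0.21 (adjusted p = 4.68e-05), 2.27 ± 0.21 (adjusted p = 2.66e-05) and 2.37 ± 0.21 (adjusted p = 1.68e-05). Counts per gene do not separate the M1 and M2 splice forms of Pkm.

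Eno1, enolase 1, went on rising with time. It stood at 262, 407 and 359.8 CPM across NW and 737, 902 and 887 at 16 h. Eno1 then measured 1304, 912 and 1128 CPM at 1.5 d and 1830.3, 1581 and 1821 by 3 d. The changes against NW were 1.30 ± 0.22 (adjusted p = 0.00124), 1.70 ± 0.22 (adjusted p = 0.000260) and 2.35 ± 0.23 (adjusted p = 3.17e-05). All 3 d libraries lay above all 16 h libraries, and the rise from 16 h to 3 d was 1.05 ± 0.22 (adjusted p = 0.00947). Gapdh, a glycolytic enzyme that is often used as a reference gene in quantitative PCR, stood at 282, 345 and 293 CPM across NW and 795, 907 and 877 at 16 h. Gapdh then measured 1577, 844 and 1282 CPM at 1.5 d and 1374, 1106 and 1215 by 3 d. That is 2.81-fold, 4.03-fold and 4.02-fold the NW level, or 1.49 ± 0.23 (adjusted p = 0.000713), 2.01 ± 0.24 (adjusted p = 0.000123) and 2.01 ± 0.24 (adjusted p = 0.000120) on the log2 scale. Pgam1, phosphoglycerate mutase, stood at 35.3, 47.9 and 37.7 CPM across NW and 80.1, 88.4 and 85.7 at 16 h. Pgam1 then measured 115, 83.9 and 102 CPM at 1.5 d and 125, 97.7 and 144 by 3 d. Its change was 1.07 ± 0.21 (adjusted p = 0.00272) at 16 h and 1.60 ± 0.21 (adjusted p = 0.000253) at 3 d. Pgk1, phosphoglycerate kinase, rose by 1.60 ± 0.28 (adjusted p = 0.00164), 1.92 ± 0.29 (adjusted p = 0.000608) and 2.09 ± 0.29 (adjusted p = 0.000389). Fragments that also align to near-identical copies, such as the retrogene Eno1b or the many processed pseudogenes of Gapdh, were not counted, so the absolute levels of Eno1, Gapdh, Pgk1 and Pgam1 are uncertain. The called rises of these 4 genes and of Pkm against NW held under every alternative run.

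The remaining lower glycolysis members were scarcer. Eno2, the neuron-type enolase, stood between 2.40 and 11.2 CPM and rose at 16 h by 1.36 ± 0.40 (adjusted p = 0.0245) and at 3 d by 1.56 ± 0.40 (adjusted p = 0.0148). Bpgm, which makes 2,3-bisphosphoglycerate, stood at 8.79 to 17 CPM in NW and at 16 h and at 22.6 to 49.2 CPM later, without overlap. It was not called at 16 h (0.29 ± 0.31) and rose later, by 1.37 ± 0.32 (adjusted p = 0.00771) at 1.5 d and 1.37 ± 0.32 (adjusted p = 0.00900) at 3 d. Its difference between 3 d and 16 h was at the threshold (1.08 ± 0.32, adjusted p = 0.0491), and that between 1.5 d and 16 h was called with DESeq2 (0.0205). The 16 h call of Eno2 was lost with any one of NW replicates 1 and 3 or 16 h replicate 2 left out (adjusted p from 0.0680 to 0.124), with the keratinocyte covariate (0.0694) and in a fit of the 2 groups alone (0.0665). The 3 d call was lost with NW replicate 3 left out (adjusted p = 0.0514) and with the keratinocyte covariate (0.127). For Bpgm, the calls at 1.5 d and 3 d were lost with the keratinocyte covariate (0.0611 and 0.0708). The one between 3 d and 16 h was lost with any one of NW replicate 1, 16 h replicates 1, 2 and 3, 1.5 d replicate 2 or 3 d replicates 1, 2 and 3 left out (adjusted p from 0.0589 to 0.148), with total-count scaling (0.0878), with limma-voom (0.0509) and with the keratinocyte covariate (0.0653).

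The lactate genes held the largest called changes of the 41, in both directions. Ldha encodes the lactate dehydrogenase chain that favours making lactate from pyruvate. Ldha (chromosome 7, 46845804 to 46855627 in mm10) stood at 421, 607 and 441 CPM across NW and 2005, 1992 and 1905 at 16 h. Ldha then measured 3446, 1594 and 2574 CPM at 1.5 d and 2053, 1572 and 2304 by 3 d. Even the lowest wound library was above 2.5 times the highest NW library. The changes were 2.01 ± 0.28 (adjusted p = 0.000392), 2.37 ± 0.29 (adjusted p = 0.000155) and 2.01 ± 0.28 (adjusted p = 0.000450), with no difference called between wound times. Ldhb, the heart-type chain that favours the reverse reaction, stood at 8.62, 14.8 and 13.2 CPM across NW and 0.934, 0.633 and 1.95 at 16 h. Ldhb then measured 4.17, 2.93 and 0.952 CPM at 1.5 d and 2.36, 5.48 and 8.02 by 3 d. All wound libraries lay below all NW libraries, lowest at 16 h. Ldhb fell by 10.4-fold at 16 h (log2 -3.38 ± 0.66, adjusted p = 0.00292) and 4.56-fold at 1.5 d (-2.19 ± 0.62, adjusted p = 0.0219). At 3 d it was not called (-1.21 ± 0.61, adjusted p = 0.179), and it rose from 16 h to 3 d by 2.17 ± 0.63 (adjusted p = 0.0476). Per length, Ldhb made up 2.94, 3.48 and 4.24% of the Ldha and Ldhb sum in the NW libraries, 0.0689, 0.0470 and 0.151% at 16 h, 0.179, 0.271 and 0.0547% at 1.5 d and 0.170, 0.513 and 0.513% at 3 d. The keratinocyte covariate moved the 16 h change of Ldhb to -2.63 (adjusted p = 0.0165) and the 1.5 d change from -2.19 to -1.13. The 1.5 d call of Ldhb was lost with any one of NW replicates 2 and 3 or 1.5 d replicates 2 and 3 left out (adjusted p from 0.0526 to 0.0755) and with the keratinocyte covariate (0.410). Its rise from 16 h to 3 d was lost with any one of NW replicates 1, 2 and 3, 16 h replicates 1 and 2, 1.5 d replicate 2 or 3 d replicates 2 and 3 left out (adjusted p from 0.0553 to 0.162), with total-count scaling (0.0623), with limma-voom (0.105) and in a fit of the 2 groups alone (0.0737).

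Slc16a3 and Slc16a1 encode the monocarboxylate transporters MCT4 and MCT1, which move lactate across the plasma membrane. MCT4 has a low affinity and is known for export from glycolytic cells, and MCT1 carries lactate in either direction. Slc16a3 (chromosome 11, 120948484 to 120959000 in mm10) stood at 9.08, 14.8 and 9.72 CPM across NW and 49.2, 49.9 and 36.5 at 16 h. Slc16a3 then measured 213, 83.5 and 251 CPM at 1.5 d and 378, 283 and 297 by 3 d. The 4 groups did not overlap, and the order was NW, 16 h, 1.5 d and 3 d. Slc16a3 rose 4.04-fold at 16 h (log2 2.01 ± 0.35, adjusted p = 0.00152), 16.3-fold at 1.5 d (4.03 ± 0.38, adjusted p = 3.1e-05) and 28.5-fold at 3 d (4.84 ± 0.40, adjusted p = 1.28e-05). It also rose within the wound series, by 2.01 ± 0.35 (adjusted p = 0.00951) from 16 h to 1.5 d and by 2.82 ± 0.36 (adjusted p = 0.000487) from 16 h to 3 d. The difference between 3 d and 1.5 d was not called (0.81 ± 0.34). All 5 calls held under every alternative run.

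Slc16a1 stood at 147, 74.4 and 99.4 CPM across NW and 398, 382 and 229.6 at 16 h. Slc16a1 then measured 368, 306 and 512 CPM at 1.5 d and 407, 261 and 184 by 3 d. It was higher in every wound library than in every NW library, with no difference called between wound times. The changes were 1.65 ± 0.35 (adjusted p = 0.00437), 1.89 ± 0.35 (adjusted p = 0.00211) and 1.41 ± 0.34 (adjusted p = 0.0116). Per length, Slc16a3 made up 9.61, 25.4 and 14.4% of their sum in the NW libraries, 17.5, 18.3 and 21.5% at 16 h, 49.9, 31.9 and 45.7% at 1.5 d and 61.5, 65.1 and 73.6% at 3 d. The share at 16 h lay within the NW range while both genes had risen, and at 3 d it was above all earlier libraries. From raw counts without length the mean share was 10.4% for NW, 12.1% at 16 h, then 30.3% at 1.5 d and 54.0% by 3 d. With the keratinocyte covariate the change of Slc16a1 was 1.23 at 1.5 d and 0.64 at 3 d. The Slc16a1 call was lost at 1.5 d with the keratinocyte covariate (0.0805) and at 3 d with any one of NW replicate 2 or 3 d replicate 1 left out (adjusted p from 0.0504 to 0.0652) and with the keratinocyte covariate (0.433).

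**Figure D2:**
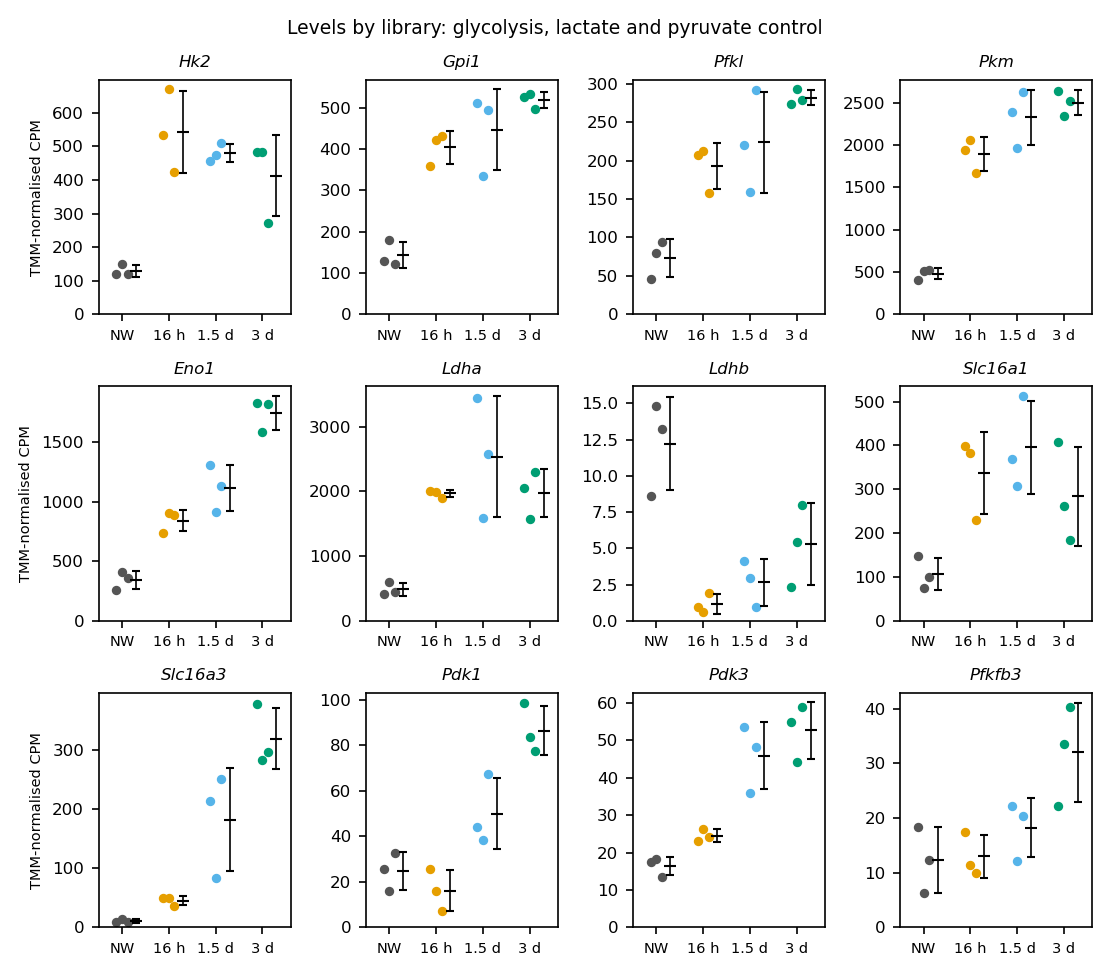
TMM-normalised CPM (y axis, from 0) of 12 genes in NW, 16 h, 1.5 d and 3 d, 1 point per library, with a dash and bar for the mean ± SD (n = 3). Slc16a3 climbs from at most 14.8 CPM in NW to at least 283 at 3 d, Hk2, Pkm and Ldha are high from 16 h on, and Ldhb is below 2 CPM in every 16 h library.

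The PFKFB enzymes make and remove fructose 2,6-bisphosphate, the strongest activator of phosphofructokinase, and pyruvate dehydrogenase kinases (PDKs) switch off the entry of pyruvate into mitochondria. Neither family moved as a block. Pfkfb3, the isozyme with the highest kinase activity, stood at 18.4, 6.32 and 12.4 CPM across NW and 17.5, 11.4 and 10 at 16 h. Pfkfb3 then measured 22.2, 12.2 and 20.4 CPM at 1.5 d and 22.3, 33.5 and 40.3 by 3 d. Against NW it rose at 3 d only (1.38 ± 0.40, adjusted p = 0.0268). Pfkfb2 stood at 20.3, 18.6 and 11.8 CPM across NW and 5.80, 10.5 and 5.57 at 16 h. Pfkfb2 then measured 6.13, 6.08 and 6.86 CPM at 1.5 d and 3.58, 10.5 and 6.29 by 3 d. It fell at all 3 times, with changes of -1.21 ± 0.41 (adjusted p = 0.0481), -1.41 ± 0.42 (adjusted p = 0.0259) and -1.31 ± 0.42 (adjusted p = 0.0396), and with every wound library below every NW library. Pfkfb4 stood at 20.7, 6.94 and 15 CPM across NW and 9.37, 5.66 and 10.8 at 16 h. Pfkfb4 then measured 9.93, 11.8 and 12.3 CPM at 1.5 d and 9.16, 13.9 and 9.43 by 3 d. Its groups overlapped and it was not called. Per length, Pfkfb3 went from 27.9% ± 3.81 of the family sum in NW to 61.2% ± 7.31 at 3 d (mean ± SD, n = 3). The rise of Pfkfb3 from 16 h to 3 d was called with any one of NW replicates 1 and 2 left out (adjusted p from 0.0306 to 0.0449), without the filter on low counts (0.0417), with the stricter filter (0.0429), with DESeq2 (0.0127), with limma-voom (0.0432) and in a fit of the 2 groups alone (0.0345). Its 3 d call against NW was lost with any one of NW replicates 2 and 3 or 3 d replicates 2 and 3 left out (adjusted p from 0.0583 to 0.0864), with the keratinocyte covariate (0.0984) and in a fit of the 2 groups alone (0.0529). The Pfkfb2 call was lost at 16 h with any one of NW replicates 1 and 2, 16 h replicates 1 and 3, 1.5 d replicates 1, 2 and 3 or 3 d replicate 3 left out (adjusted p from 0.0576 to 0.142), with total-count scaling (0.0578) and with the keratinocyte covariate (0.244). At 1.5 d it was lost with any one of NW replicates 1 and 2 or 1.5 d replicates 1, 2 and 3 left out (adjusted p from 0.0677 to 0.0806) and with the keratinocyte covariate (0.395). At 3 d it was lost with any one of NW replicates 1 and 2, 1.5 d replicates 2 and 3 or 3 d replicates 1 and 3 left out (adjusted p from 0.0516 to 0.150), with the keratinocyte covariate (0.512) and in a fit of the 2 groups alone (0.0705).

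Of the 4 PDK genes, Pdk1 and Pdk3 ended higher in wounds and Pdk2 was lower in every wound library than in every NW library. Pdk1, a known target of hypoxia-inducible factor, stood at 25.8, 15.8 and 32.7 CPM across NW and 25.6, 16 and 7.15 at 16 h. Pdk1 then measured 44.2, 38.3 and 67.6 CPM at 1.5 d and 98.5, 83.5 and 77.5 by 3 d. It was not called at 16 h (-0.61 ± 0.40) or 1.5 d (1.01 ± 0.40) by edgeR, and at 3 d it was above every other library of the series. The 3 d change was 1.80 ± 0.41 (adjusted p = 0.00746) against NW and 2.41 ± 0.41 (adjusted p = 0.00323) against 16 h. Pdk3 stood at 17.4, 18.2 and 13.6 CPM across NW and 23, 26.3 and 24.2 at 16 h. Pdk3 then measured 53.4, 35.9 and 48.1 CPM at 1.5 d and 54.9, 44.1 and 58.8 by 3 d. The 4 groups of Pdk3 kept the order NW, 16 h and then both later times, whose ranges overlapped. It rose by 1.48 ± 0.23 (adjusted p = 0.000659) at 1.5 d and 1.68 ± 0.23 (adjusted p = 0.000317) at 3 d, and from 16 h to 3 d by 1.10 ± 0.22 (adjusted p = 0.00832). Pdk2 stood at 19.5, 20.1 and 22.4 CPM across NW and 3.80, 5.78 and 12.1 at 16 h. Pdk2 then measured 6.33, 16.3 and 14.6 CPM at 1.5 d and 14.5, 19 and 10 by 3 d. It fell at 16 h (-1.51 ± 0.45, adjusted p = 0.0260) and was not called against NW at 1.5 d or 3 d. Pdk4, a fasting-responsive isozyme, stood at 7.44, 3.13 and 8.39 CPM across NW and 1.10, 1.63 and 0 at 16 h. Pdk4 then measured 2.73, 3.79 and 1.39 CPM at 1.5 d and 2.65, 7.67 and 6.43 by 3 d. All 16 h libraries lay below all NW libraries. Pdk4 was not called at any time by edgeR. Its 16 h fall was called with 16 h replicate 3 left out (adjusted p = 0.0387), with DESeq2 size factors (0.0495), with the stricter filter (0.0376), with DESeq2 (0.00727) and with limma-voom (0.0311). Its rise from 16 h to 3 d was called with DESeq2 (0.0247). The summed PDK level per length was 22.2 ± 1.68 RPKM in NW, 17.9 ± 0.419 by 16 h, 36.9 ± 4.95 by 1.5 d and 48.4 ± 2.41 by 3 d (mean ± SD, n = 3). Pdk3 held 37.1, 43.5 and 28% of it in NW and 63.7, 69.7 and 66.5% at 16 h. Rises from 16 h to 1.5 d lay at the threshold for Pdk1 (1.62 ± 0.40, adjusted p = 0.0499) and Pdk3 (0.90 ± 0.22, adjusted p = 0.0486).

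With 16 h replicate 3 left out the change of Pdk2 was -2.10 (adjusted p = 0.00715). The Pdk2 call was lost with any one of NW replicates 1, 2 and 3 or 16 h replicates 1 and 2 left out (adjusted p from 0.0517 to 0.0994) and with the keratinocyte covariate (0.0603). The 3 d call of Pdk1 against NW was lost with the keratinocyte covariate (0.130). The rise of Pdk1 from 16 h to 1.5 d was lost with any one of NW replicates 1 and 3, 16 h replicates 2 and 3, 1.5 d replicates 1, 2 and 3 or 3 d replicates 1, 2 and 3 left out (adjusted p from 0.0611 to 0.173), with the keratinocyte covariate (0.101) and in a fit of the 2 groups alone (0.0740). That of Pdk3 was lost with any one of NW replicates 1, 2 and 3, 16 h replicates 1, 2 and 3, 1.5 d replicates 1 and 3 or 3 d replicates 1, 2 and 3 left out (adjusted p from 0.0504 to 0.164), with total-count scaling (0.0992), without the filter on low counts (0.0556), with limma-voom (0.0548), with the keratinocyte covariate (0.0981) and in a fit of the 2 groups alone (0.0735). The rise of Pdk1 at 1.5 d against NW was called with 16 h replicate 3 left out (adjusted p = 0.0309) and with limma-voom (0.0461).

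**Figure D3:**
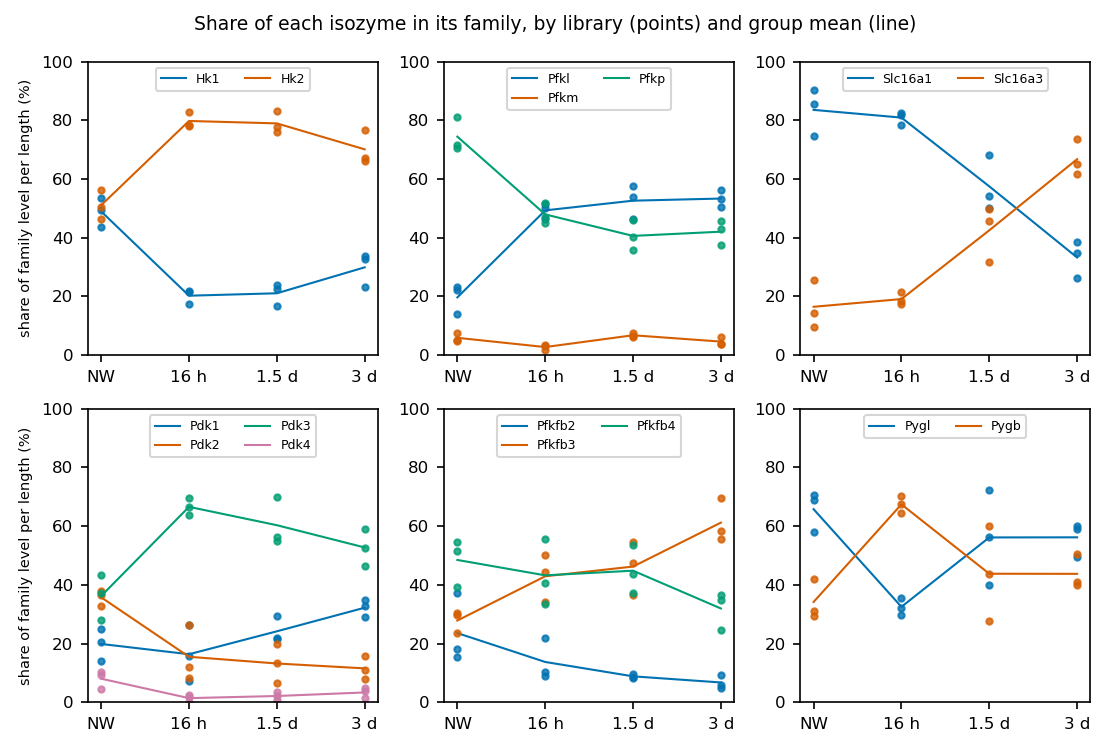
Share of each isozyme in the summed level per exon length of its family (y axis, percent) in NW, 16 h, 1.5 d and 3 d, with 1 point per library and a line through the group means, for hexokinases, phosphofructokinases, lactate transporters, PDKs, PFKFB enzymes and glycogen phosphorylases. Pfkl overtakes Pfkp after wounding, Slc16a3 overtakes Slc16a1 at 3 d, and Pygl and Pygb change places at 16 h.

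Of 7 pentose phosphate genes, 3 rose at 16 h and at 1.5 d and 1 at 3 d, and none fell. Of all genes tested, 13.5%, 13.7% and 12% rose at these times and 11.2%, 10.8% and 9.15% fell. The rise of 1 of 7 at 3 d and the lack of falls are near those shares. Pgd, 6-phosphogluconate dehydrogenase of the oxidative branch, stood at 75.3, 54.2 and 56.9 CPM across NW and 161, 163 and 167 at 16 h. Pgd then measured 181, 149 and 173 CPM at 1.5 d and 128, 104 and 116 by 3 d. All wound libraries lay above all NW libraries, with changes of 1.40 ± 0.19 (adjusted p = 0.000273), 1.43 ± 0.19 (adjusted p = 0.000257) and 0.90 ± 0.19 (adjusted p = 0.00447). G6pdx, glucose-6-phosphate dehydrogenase, which commits glucose 6-phosphate to the pathway, stood at 79.9, 58.5 and 75.3 CPM across NW and 112, 125 and 111 at 16 h. G6pdx then measured 150.3, 123 and 148 CPM at 1.5 d and 99.7, 102 and 77.8 by 3 d. It rose at 16 h (0.70 ± 0.19, adjusted p = 0.0172) and 1.5 d (0.98 ± 0.19, adjusted p = 0.00289), and at 3 d it overlapped NW (0.39 ± 0.19). Tkt, transketolase of the non-oxidative branch, stood at 135, 122 and 126 CPM across NW and 225, 213 and 220.0 at 16 h. Tkt then measured 238, 172 and 173 CPM at 1.5 d and 122, 144 and 171 by 3 d. It rose at 16 h (0.78 ± 0.19, adjusted p = 0.0103) and 1.5 d (0.61 ± 0.19, adjusted p = 0.0343), with the 3 d libraries again overlapping NW. None of the 3 was called between wound times in this fit, so a decline from 1.5 d to 3 d was not shown. A fall of Tkt from 16 h to 3 d was called with 1.5 d replicate 1 left out (adjusted p = 0.0476), with total-count scaling (0.0320) and with DESeq2 (0.0259).

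The other 4 pentose phosphate genes were not called by edgeR. Pgls, the lactonase of the oxidative branch, ranged from 34.6 to 76.6 CPM over the 12 libraries, Taldo1, transaldolase, from 76.5 to 172.9 CPM, and Rpe, the ribulose-phosphate epimerase, from 19.9 to 35.2 CPM. Their changes against NW lay between -0.40 and 0.28. Rpia, ribose-5-phosphate isomerase, stood at 0.458, 1.28 and 1.49 CPM across NW and 1.17, 0.602 and 2.25 at 16 h. Rpia then measured 0.900, 0.197 and 0.0664 CPM at 1.5 d and 0.122, 0.0811 and 0.145 by 3 d. The 3 d values were near the level of 3 counts. DESeq2 called Rpia lower at 3 d than in NW (adjusted p = 0.0208) and than at 16 h (0.0180). Of the exon length of Rpe, 20.7% overlaps Kansl1l. The G6pdx call was lost at 16 h with any one of NW replicate 2 or 16 h replicate 2 left out (adjusted p from 0.0667 to 0.0712) and with the keratinocyte covariate (0.102) and at 1.5 d with the keratinocyte covariate (0.105). Pgd at 3 d was lost with the keratinocyte covariate (0.165). Tkt at 1.5 d was lost with any one of NW replicates 2 and 3, 16 h replicate 2 or 1.5 d replicate 1 left out (adjusted p from 0.0517 to 0.119), with total-count scaling (0.0540), without the filter on low counts (0.0514), with the keratinocyte covariate (0.0786) and in a fit of the 2 groups alone (0.0849).

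Glycogen genes diverged at 16 h. Gys1, the glycogen synthase of muscle and most other tissues (chromosome 7, 45434839 to 45456617 in mm10), stood at 8.24, 10.7 and 11.9 CPM across NW and 60.1, 47.5 and 25.4 at 16 h. Gys1 then measured 56.2, 45.5 and 107 CPM at 1.5 d and 98.7, 85.6 and 73.2 by 3 d. Every wound library was above 2 times the highest NW library. Gys1 rose 4.31-fold (log2 2.11 ± 0.36, adjusted p = 0.00136), 6.76-fold (2.76 ± 0.37, adjusted p = 0.000301) and 8.34-fold (3.06 ± 0.38, adjusted p = 0.000164). Pygl, the liver-type glycogen phosphorylase that breaks glycogen down (chromosome 12, 70190815 to 70227683 in mm10), stood at 76.3, 50.4 and 52.1 CPM across NW and 14.6, 18.7 and 14.8 at 16 h. Pygl then measured 70.8, 39 and 77.6 CPM at 1.5 d and 96.2, 84.9 and 65.1 by 3 d. The 16 h libraries were below all others, and those at 1.5 d and 3 d were not called against NW (0.07 ± 0.28 and 0.46 ± 0.28). Pygl fell by 3.71-fold at 16 h (log2 -1.89 ± 0.29, adjusted p = 0.000571) and rose from there by 1.96 ± 0.29 (adjusted p = 0.00432) to 1.5 d and 2.35 ± 0.29 (adjusted p = 0.000427) to 3 d. The called changes of Gys1 and Pygl held under every alternative run. A rise of Gys1 from 16 h to 3 d was called with DESeq2 (0.0457).

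Pygb, the brain-type phosphorylase, stood at 47, 28.7 and 51.3 CPM across NW and 47.1, 46.1 and 42.1 at 16 h. Pygb then measured 37, 79.6 and 81.9 CPM at 1.5 d and 90.4, 117 and 59.2 by 3 d. It rose at 3 d (1.07 ± 0.33, adjusted p = 0.0356), where the replicates ranged widely. Per length, Pygl held 68.8, 70.5 and 58% of the sum of both phosphorylases in NW and 29.7, 35.6 and 32.3% at 16 h. Ugdh, which turns UDP-glucose into the UDP-glucuronate of hyaluronan and other glycosaminoglycans, stood at 1637, 1036 and 842 CPM across NW and 2372, 2727 and 2383 at 16 h. Ugdh then measured 3040.4, 1624 and 1977 CPM at 1.5 d and 1738, 1518 and 1355 by 3 d. It had the highest mean level per length of the 41 members in NW (479.7 RPKM) and stood level with Ldha at 16 h (1021 and 1019 RPKM). Ugdh rose at 16 h (1.09 ± 0.29, adjusted p = 0.0146) and 1.5 d (0.92 ± 0.28, adjusted p = 0.0322) but not at 3 d (0.39 ± 0.28). The mean level per length was highest for Ldha at 1.5 d (1315 RPKM) and at 3 d (1024 RPKM), ahead of Ugdh and Pkm at 1.5 d and of Eno1 and Pkm at 3 d, by less than the spread between replicates. Fragments shared with near-identical copies were not counted. The absolute levels of Ldha, Aldoa, Tpi1, Gapdh and Eno1 are therefore uncertain, and so are these ranks, those in NW and at 16 h included. Gbe1, the branching enzyme, and Ugp2, which makes UDP-glucose, ranged from 16.9 to 33.0 and from 131 to 256 CPM and were not called by edgeR. The 16 h rise of Gbe1 was called with 16 h replicate 1 left out (adjusted p = 0.0431) and with DESeq2 (0.0479). The Ugdh call was lost at 16 h with any one of NW replicates 2 and 3 or 16 h replicate 2 left out (adjusted p from 0.0521 to 0.0555) and with the keratinocyte covariate (0.0725). At 1.5 d it was lost with any one of NW replicates 2 and 3 or 1.5 d replicates 1 and 3 left out (adjusted p from 0.0538 to 0.126), with the keratinocyte covariate (0.354) and in a fit of the 2 groups alone (0.0827). The Pygb call was lost with any one of NW replicates 1, 2 and 3 or 3 d replicates 1 and 2 left out (adjusted p from 0.0535 to 0.131), with total-count scaling (0.0562), with the keratinocyte covariate (0.362) and in a fit of the 2 groups alone (0.0514). Its rise from 16 h to 3 d was called with any one of 1.5 d replicate 1 or 3 d replicate 3 left out (adjusted p from 0.0391 to 0.0496), with DESeq2 (0.0305) and in a fit of the 2 groups alone (0.0412), and that at 1.5 d against NW with 1.5 d replicate 1 left out (adjusted p = 0.0430).

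**Figure D4:**
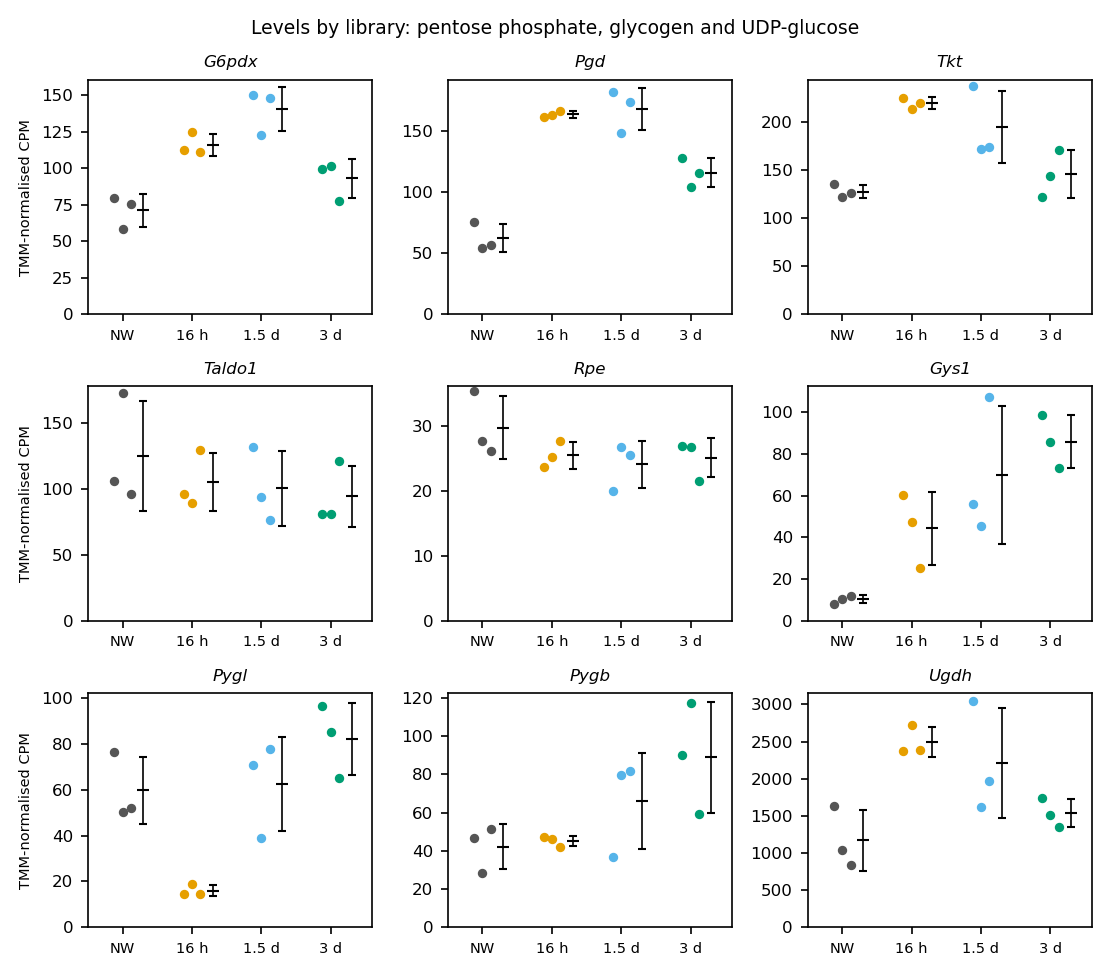
TMM-normalised CPM (y axis, from 0) of 5 pentose phosphate genes and 4 genes of glycogen and UDP-glucose metabolism in NW, 16 h, 1.5 d and 3 d, 1 point per library, with a dash and bar for the mean ± SD (n = 3). Pgd, G6pdx and Tkt stand highest at 16 h or 1.5 d, Gys1 is higher in all wound groups, and Pygl is at 14.6 to 18.7 CPM at 16 h only.

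Other genes of these pathways, listed apart from the 41, are given by their counts. Of 70 tested, 12 rose and 7 fell at 16 h (17.1% and 10%, against 13.5% and 11.2% of all genes). At 1.5 d 15 rose and 3 fell (21.4% and 4.29%, against 13.7% and 10.8%), and at 3 d 10 rose and 4 fell (14.3% and 5.71%, against 12% and 9.15%). The median changes were -0.02, 0.16 and -0.04. The F test over the 4 groups called 20 of them, or 28.6%, near the 29.7% of all genes. Whether the calls of single genes from these lists hold under the alternatives was not tested. Txnip, which encodes an inhibitor of glucose uptake and is itself induced by glucose, stood at 167 ± 9.96 CPM unwounded (mean ± SD, n = 3), then 27.7 ± 1.64 by 16 h, 22.4 ± 4.71 by 1.5 d and 28.2 ± 8.34 by 3 d, and fell by 6.03-fold at 16 h (log2 -2.59, adjusted p = 2.91e-05). Slc2a12, another glucose transporter, fell from 38.2 ± 6.15 to 5.32 ± 2.03 CPM at 16 h (log2 -2.84, adjusted p = 0.00250). Slc16a7, the high-affinity monocarboxylate transporter MCT2, fell from 11.2 ± 8.09 to 1.35 ± 0.682 CPM (log2 -3.05, adjusted p = 0.00397).

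H6pd, which starts a pentose phosphate branch inside the endoplasmic reticulum, stood at 43.1 ± 11.4 CPM unwounded (mean ± SD, n = 3), then 169.5 ± 41.3 by 16 h, 286 ± 101 by 1.5 d and 143 ± 29.1 by 3 d. Its changes were 1.98 (adjusted p = 0.000658), 2.73 (adjusted p = 0.000104) and 1.73 (adjusted p = 0.00174). Prps1, which makes the ribose donor for nucleotides, rose at 16 h by 1.34 (adjusted p = 0.00597). Pgm1, a phosphoglucomutase gene, stood at 40.9 ± 2.90 CPM unwounded (mean ± SD, n = 3), then 82.3 ± 7.63 by 16 h, 142 ± 25.7 by 1.5 d and 205 ± 35.9 by 3 d and rose at each time, by 1.01 (adjusted p = 0.00322), 1.80 (adjusted p = 9.87e-05) and 2.33 (adjusted p = 2.12e-05). Pck2, which encodes a mitochondrial enzyme of gluconeogenesis, fell at 16 h (-1.08, adjusted p = 0.0233) and rose at 1.5 d (1.00, adjusted p = 0.0330) and 3 d (1.19, adjusted p = 0.0166). Galk1, galactokinase, rose by 1.68 (adjusted p = 0.000225), 2.42 (adjusted p = 2.73e-05) and 2.36 (adjusted p = 3.13e-05).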

How the data were processed

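Polyadenylated RNA of sorted cells was made into unstranded full-length cDNA libraries and sequenced as paired ends, per the labels' protocols. The deposited values are whole-number counts of fragments per gene, made by the authors with featureCounts 2.0.0 over the exons of refGene genes on mm10, per the file headers, with no option set for strand, multiple alignment or overlap. STAR, SAMtools, Subread and Partek are named in the submitters' processing notes without versions. Counts were filtered with filterByExpr (14901 genes left), scaled by TMM and fitted by group over all 12 libraries with edgeR 4.0.16 in R 4.3.3, with the Benjamini-Hochberg adjustment taken over those genes. The SE was back-calculated as the change over the square root of F and is approximate. RPKM used the exon lengths of the table. Replicate numbers do not pair the mice. The scripts were tested on simulated data. DESeq2 1.42.0 and limma 3.58.1 served as alternatives, with other scalings, other filters, a replicate block, a keratinocyte covariate, fits of the 2 groups compared and fits without each library.

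The members, lists, comparisons and tests were chosen with earlier results of these data known. Any member may be named. Values in every library are given for up to 4 members of each role with the smallest F test p and for members that fell where most of their role rose. Of other pathway genes the report names at most 2 per list, by the same p, and the closing section names 2 more. Promoters are those of the 3 largest called rises and 2 largest called falls at 16 h. No protein sequences were used here.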

Additional observations from a re-analysis of the deposited data

Results flagged for a closer look

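The change against NW differed between wound times, by the edgeR test of the later time against 16 h, for these members. Against 16 h, the log2 difference at 1.5 d was 1.41 for Pfkm, 2.01 for Slc16a3, 1.62 for Pdk1, 0.90 for Pdk3 and 1.96 for Pygl. At 3 d it was 1.18 for Pfkm, 1.11 for Tpi1, 1.05 for Eno1, 1.08 for Bpgm, 2.17 for Ldhb, 2.82 for Slc16a3, 2.41 for Pdk1, 1.10 for Pdk3 and 2.35 for Pygl. Slc16a3, Eno1, Pdk3 and Tpi1 lay above NW at 16 h and went further up. Pygl, Ldhb and Pfkm had fallen at 16 h and came back toward NW. Adjusted p values and the libraries on which they rest stand in the report.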

How the results depend on the processing

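Of 84 called member changes, 50 kept their call under all 21 settings, 12 of which leave out 1 library, and none changed sign. DESeq2 called 8 falls at 16 h (5 by edgeR) and 3 at 3 d (1 by edgeR), and limma-voom called 2 falls at 3 d. Both tools also called more falls over all 14901 genes. DESeq2 called 2339 at 16 h (1672 by edgeR) and 1866 at 3 d (1363 by edgeR), and limma-voom called 1618 at 3 d. Over all comparisons DESeq2 kept all 84 calls and added 16, and limma-voom kept 81 and added 7. With the keratinocyte covariate there were 3 falls at 16 h, 0 at 1.5 d, 14 rises and 0 falls at 3 d and 2 rises from 16 h to 1.5 d. Fits of the 2 groups alone gave 3 rises from 16 h to 1.5 d (5 in the fit of all groups). Over all genes, rises from 16 h to 1.5 d were 251 with the covariate and 309 with the 2 groups alone, against 356. From 16 h to 3 d, total-count scaling gave 3 falls and DESeq2 gave 2, where the fit of all groups gave 0. Over all genes these gave 971, 897 and 547 falls. The causes of these differences were not tested. With 1 library left out, the 16 h counts of members ranged from 14 to 19 rises and 2 to 5 falls, those of 1.5 d from 17 to 22 and 0 to 4, and those of 3 d from 17 to 22 and 0 to 2. Over all genes these fits gave 1308 to 2095 rises and 941 to 1678 falls at 16 h. At 1.5 d they gave 1431 to 2102 and 961 to 1700, and at 3 d 1093 to 1876 and 733 to 1393. Rises of members from 16 h to 1.5 d ranged from 2 to 4, those from 16 h to 3 d from 5 to 10 with 0 to 1 falls, and members that differed by the F test from 22 to 28. Over all genes, rises from 16 h to 1.5 d ranged from 137 to 369. Those from 16 h to 3 d ranged from 523 to 917, with 203 to 611 falls. F test counts over all genes are not given for these fits. Such fits have fewer samples, and 2 libraries then stand for a group.

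A replicate block left 73 of the 84 calls, the other 11 having adjusted p from 0.0527 to 0.110. It gave 1 fall at 1.5 d and 2 rises from 16 h to 1.5 d and moved no other count of members by over 1.5 times. Over all genes the block gave 1369 falls at 1.5 d and 193 rises from 16 h to 1.5 d, against 1613 and 356 without it. The numbers do not pair the mice: same-numbered libraries correlated between -0.17 and 0.17 in their deviations from group means, 2 of 18 pairs were over 0.1, and 3 of 12 libraries correlated best with their own number. Depth limits Rpia and Aldoc, which were near 3 counts in some wound libraries, and Pdk4, which had 0 counts in 16 h replicate 3. Protein identities between isozymes were planned and not run.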

Other observations

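Gfpt2, Uap1 and Ugdh, genes of the UDP-sugar branch of glucose use, had high CPM in these cells. Ugp2, which makes UDP-glucose, ranged from 131 to 256 CPM and was not called by edgeR. Both Ugdh calls were lost by edgeR with the keratinocyte covariate (adjusted p of 0.0725 at 16 h and 0.354 at 1.5 d). Whether the calls of Gfpt2 and Uap1 hold in that fit or under the other alternatives was not tested. Gfpt2 and Uap1, chosen after their values were seen, encode the first and last enzymes on the way from fructose 6-phosphate to UDP-N-acetylglucosamine, which with the product of Ugdh is a building block of hyaluronan. Gfpt2 stood at 1929 ± 829.9 CPM unwounded (mean ± SD, n = 3), then 4451 ± 879 by 16 h, 4130.2 ± 709 by 1.5 d and 3035 ± 578 by 3 d, and rose by 1.21 (adjusted p = 0.0115) on the log2 scale at 16 h and 1.10 (adjusted p = 0.0179) at 1.5 d by edgeR. Uap1 stood at 1134 ± 248 CPM unwounded (mean ± SD, n = 3), then 2043 ± 102 by 16 h, 2003 ± 513 by 1.5 d and 1118 ± 138 by 3 d, and rose by 0.85 (adjusted p = 0.0198) at 16 h and 0.82 (adjusted p = 0.0233) at 1.5 d. At 3 d neither was called against NW, with changes of 0.65 (adjusted p = 0.141) and -0.02 (adjusted p = 0.964), as for Ugdh, and Uap1 was lower at 3 d than at 16 h by -0.87 (adjusted p = 0.0365).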
